A study of Mus musculus with 2 samples.

Results

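Enterocytes with a high share of mitochondrial RNA were examined in 2 single-cell RNA-seq libraries of mouse intestinal epithelium. They were chosen by measured values of each barcode, the tag that marks 1 droplet. A member had at least 1354 unique molecular identifiers (UMIs, 1 per captured RNA molecule), at least 200 genes, and more than 25% and at most 50% of its UMIs in the mt- genes, which are encoded in mitochondrial DNA. The enterocyte genes Fabp1, Apoa4 and Apoc3 together made up at least 0.5% of its UMIs outside mt- genes, and the goblet cell genes Muc2, Fcgbp, Clca1, Zg16 and Tff3 under 0.5%. By this rule 3024 of 20711 barcodes past both minimums were members, with 1293 of 11156 from WT and 1731 of 9555 from MG53-TG. Enterocytes under the same marker limits with at most 25% mt- UMIs, 1527 in WT and 1208 in MG53-TG, served for comparison. In its own quality control the study dropped barcodes above 25% mitochondrial UMIs as low in quality. By that criterion every member was left out of its analysis.

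The WT library came from wild type littermates and the MG53-TG library from mice that overexpress MG53, a membrane repair protein encoded by Trim72, throughout the body. Both groups drank 2.5% dextran sulfate sodium (DSS), which injures the gut lining, and were sampled on day 7, so that no library without DSS served as a control. Crypts were dissociated with TrypLE, live EpCAM+ 7-AAD- cells were sorted (the study names them Epcam+CD45- cells), and libraries were made with the 10x Genomics 3′ kit, version 3. Age is not in the labels. The study names several mice per genotype for this experiment, but barcodes were not assigned to mice, so that mice could not serve as replicates.

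Each genotype had 1 library, so no difference could be set against a spread between replicates, and no test was run. A gene or list is called higher or lower where the ratio passed 1.5-fold (0.58 on the log2 scale), and intervals at 95% cover counting error only. Genotype, library, Cell Ranger version and barcode filter cannot be told apart.

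Enterocytes are the absorptive cells of the small intestine. Their apical brush border, a carpet of microvilli, carries the enzymes that finish digestion and the transporters that take up sugars, amino acids and peptides, and the cells pack absorbed fat into chylomicrons with apolipoproteins such as Apoa4 and Apob. They are made in the crypt, move up the villus while they mature and are shed at its tip. Oxidative phosphorylation draws its subunits from both genomes: 13 are encoded in mitochondrial DNA and transcribed inside the organelle, the others come from nuclear genes through cytosolic messenger RNA.

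Both libraries had enterocytes in 2 groups along the mitochondrial share, a dense one below 10% and a broad one around 40 to 50%, with a trough between them near the limit of 25%. Of 3260 WT enterocytes by the marker limits, 39.7% were members (interval 38.0 to 41.4) and 13.5% lay above 50%. Of 3398 MG53-TG enterocytes, 50.9% were members (interval 49.2 to 52.6) and 13.5% lay above 50%. Above 25% lay 53.2% of the WT and 64.4% of the MG53-TG enterocytes, which differed by 11.3 percentage points between these libraries (interval 8.93 to 13.6).

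**Figure D1:**
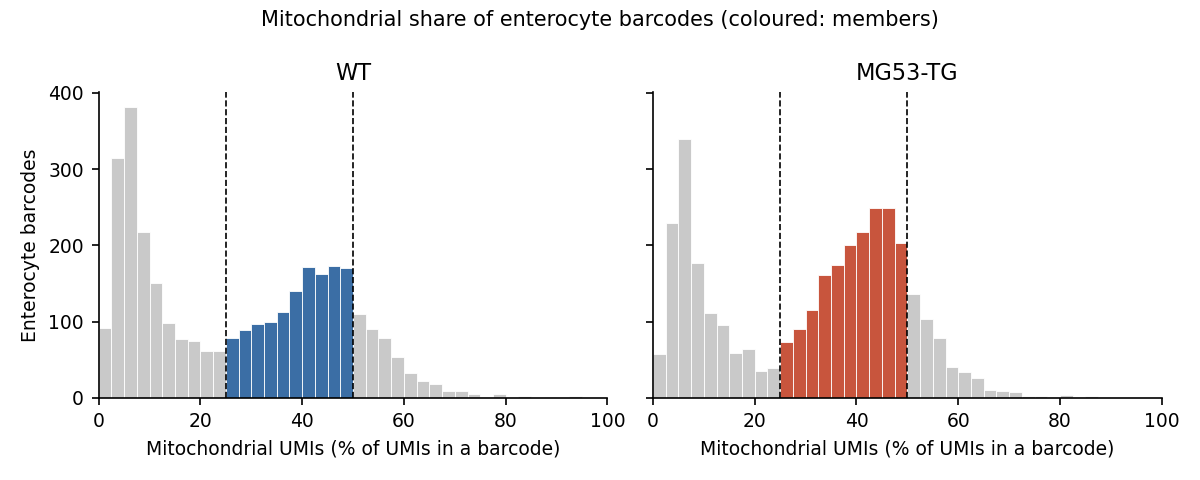
Number of enterocyte barcodes (vertical axis) by the percentage of their UMIs in mt- genes (horizontal axis, bars of 2.5 points) in each library, with members coloured and dashed lines at 25% and 50%. Members make up 39.7% of the WT and 50.9% of the MG53-TG enterocytes, and both libraries show a separate group below 10%.

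Most barcodes between 25% and 50% mt- UMIs passed the enterocyte marker limits. Members were 60.5% of them in WT and 64.2% in MG53-TG. Above 50%, the enterocyte limits were passed by 440 of 1617 WT and 459 of 1705 MG53-TG barcodes. Among barcodes outside the enterocyte marker limits, 10.7% in WT and 15.7% in MG53-TG lay between 25% and 50%. The size of the difference between libraries moved with the markers used, to 7.55 points with Apoa4 and Apoc3 alone and to 17.0 points without barcodes that carried markers of another lineage.

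The lower limit cut through barcodes of close values. WT enterocytes at 24 to 25% mt- UMIs (28 barcodes) had 5.25% of their UMIs outside mt- genes in ribosomal protein genes and those at 25 to 26% (29 barcodes) had 6.69%. For brush border enzyme genes the values were 1.39% and 1.27%. For the same step in MG53-TG, the 18 barcodes below the limit had 5.79% ribosomal protein and the 29 above it 4.31%. At the upper limit, WT barcodes at 49 to 50% and at 50 to 51% had 1.54% and 1.98% ribosomal protein.

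Members held less RNA outside the mitochondria and more mitochondrial RNA than the other enterocytes. The median WT member had 5605 UMIs and 1429 genes, against 16855 UMIs and 3392 genes at or below 25%. The median MG53-TG member had 6622 UMIs and 1668 genes, against 21223 and 3900. Median mt- UMIs were 2234 in WT members and 1150 in the other WT enterocytes, and 2647 and 1481 in MG53-TG. The high share therefore went with more mt- UMIs and also with fewer of all others. Median UMIs outside mt- genes were 3312 in WT members against 15639, and 3893 in MG53-TG members against 19478. Once every barcode was thinned to 677 UMIs outside mt- genes, the number of genes seen was nearly level, at 425 in WT members and 426 in the others, and at 443 and 440 in MG53-TG.

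The RNA classes did not drop in step. Per barcode, members had 1.65 times as many mt- UMIs as the other enterocytes in WT and 1.60 times in MG53-TG, by the means. Malat1, a long noncoding RNA kept in the nucleus (chromosome 19, 5795690 to 5802672, minus strand, GRCm38/mm10), averaged 133 UMIs per WT member and 146 per other WT enterocyte, and 172 and 230 in MG53-TG. Gm42418 and AY036118, gene models that overlap ribosomal RNA, stood at 1.30 times the other enterocytes in WT and 1.44 times in MG53-TG, and at 0.98 and 1.0 times where barcodes were admitted on Apoa4 and Apoc3 alone.

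Brush border enzyme genes averaged 57.7 UMIs per WT member against 82.7 per other WT enterocyte, and 66.0 against 111 in MG53-TG, which is 0.70 and 0.60 times (0.48 and 0.38 times where barcodes were admitted on Apoa4 and Apoc3 alone, the gate described below). Ribosomal protein genes, the protein part of the cytosolic ribosome, averaged 113 UMIs against 2902 in WT and 103 against 3373 in MG53-TG, 25.8-fold and 32.8-fold fewer, and 4.51-fold and 7.21-fold fewer on Apoa4 and Apoc3 alone. Nuclear genes of complex I, the NADH dehydrogenase of the respiratory chain, were 9.95-fold and 11.2-fold fewer per barcode (3.71-fold and 5.08-fold on Apoa4 and Apoc3 alone). Those of complex IV, cytochrome c oxidase, were 10.5-fold and 12.8-fold fewer (4.71-fold and 6.94-fold). All UMIs outside mt- genes were 4.24-fold and 4.64-fold fewer (2.27-fold and 2.80-fold), so under either set of markers the ribosomal and respiratory chain genes were depleted beyond that total.

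**Figure D2:**
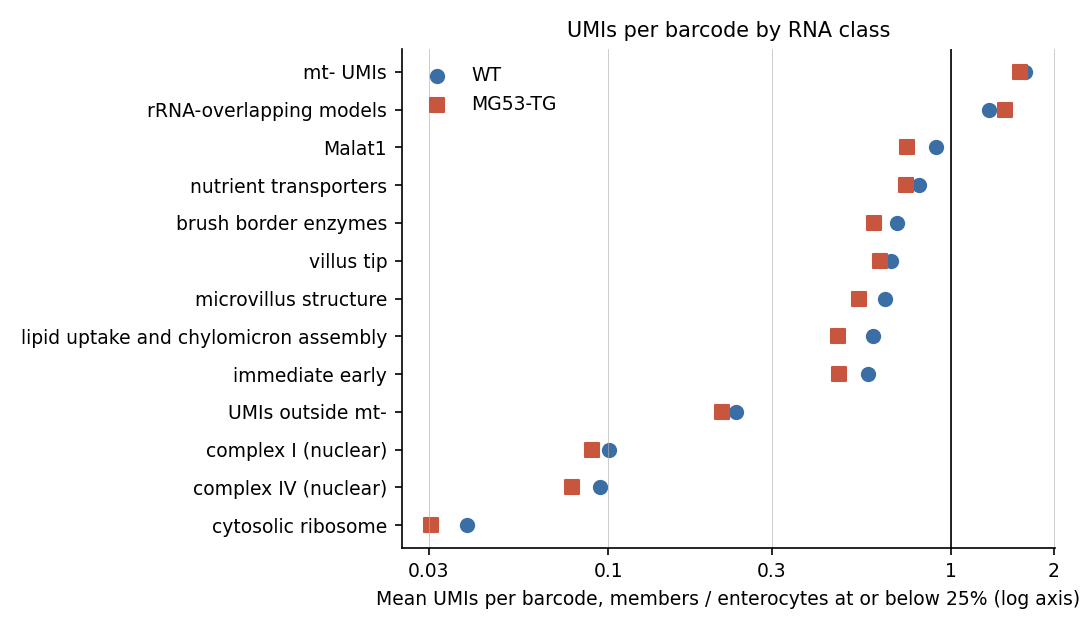
Mean UMIs per barcode in members divided by the mean in enterocytes at or below 25% mt- UMIs (horizontal log axis) for RNA classes and gene lists, in WT (circles) and MG53-TG (squares); the line at 1 marks equal means. Mitochondrial UMIs lie at 1.65 and 1.60, brush border enzymes at 0.70 and 0.60, and cytosolic ribosomal protein genes lowest, 25.8-fold and 32.8-fold fewer (4.51-fold and 7.21-fold on Apoa4 and Apoc3 alone, not drawn).

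The rule's own genes are given as a description only, since they chose the barcodes. Fabp1, a fatty acid carrier of enterocytes, averaged 16.8 UMIs per WT member against 252 and 14.4 per MG53-TG member against 373. Apoa4, the apolipoprotein of chylomicrons, averaged 30.8 against 28.8 in WT and 32.4 against 38.0 in MG53-TG. The rule accepts a barcode on any mix of its genes, and the comparison group was admitted largely through Fabp1: only 24.4% of its WT and 23.7% of its MG53-TG barcodes reached 0.5% on Apoa4 and Apoc3 alone, whereas 73.2% of WT and 72.3% of MG53-TG members did. The counts and medians of gene lists between members and the other enterocytes are therefore also given for barcodes that reached 0.5% on Apoa4 and Apoc3 alone (947 members and 372 others in WT, 1252 and 286 in MG53-TG), called the Apoa4/Apoc3 gate, a choice that was planned with earlier results known.

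The enterocyte label was borne out by markers the rule did not use. A list of 12 such genes, among them Sis, Alpi, Anpep, Fabp2, Apoa1, Apob, Mttp, Rbp2, Vil1 and Krt20, made up 6.91% of the UMIs outside mt- genes in WT members and 6.21% in MG53-TG members, against 3.26% and 3.48% in the other enterocytes. Under the Apoa4/Apoc3 gate the order turned, with 7.52% against 9.23% in WT and 6.64% against 9.0% in MG53-TG. In WT barcodes of 1 to 99 UMIs, which hold mostly free RNA, the 12 genes made up 1.63%, below the 6.91% of WT members. No such barcodes were given for MG53-TG. The 12 genes reached 0.5% in 99.9% of WT members and 100% of MG53-TG members. Free RNA alone was past that limit in WT, so these pass rates cannot bear on the label. In single genes, Apob, which scaffolds the chylomicron, was detected in 92.0% of WT members after thinning and in 48.8% of the other WT enterocytes. A list of colonocyte genes, among them Car1, Aqp8, Cyp2c55 and Slc37a2, summed to 18.6 CPM (UMIs per 1000000 UMIs outside mt- genes) in WT members and 21.9 CPM in MG53-TG members, with Car1 at 0 UMIs in both. Among small intestinal genes, the lactase gene Lct stood at 761 and 646 CPM. The ileal bile acid carrier Fabp6 had 33.3 CPM in WT members and 7.42 CPM in those of MG53-TG. Of 4 tested genes of the proximal small intestine 3 were higher in members than in the other enterocytes in both libraries, and of 4 ileal bile acid genes 1. Under the gate 2 of 4 proximal genes were higher, and of 5 ileal genes 0 were higher and 3 lower. Over all tested genes 40.0% were higher in both libraries, and under the gate 22.1% were higher and 13% lower.

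Markers of other cell types were present at different levels in the sets. Tuft cell genes, among them Dclk1, Trpm5, Avil, Pou2f3 and Gfi1b, reached 0.5% in 0.232% of WT and 0.058% of MG53-TG members, but in 7.27% and 12.8% of the other enterocytes, so the comparison group held barcodes with tuft cell markers that the members largely lacked. Paneth cell genes (Lyz1, Defa24, Defa30, Defa22, Itln1, Mmp7 and Ang4) reached 0.5% in 19.4% of WT members and 3.12% of MG53-TG members, against 5.63% and 0.662% of the other enterocytes. T cell genes reached it in 19 WT (1.47%) and 5 MG53-TG members (0.289%), against 1.18% and 0.331%. Goblet cell genes outside the rule took 0.062% of the UMIs outside mt- genes in the members of both libraries, against 0.029% and 0.044% in the others. Enteroendocrine genes took 0.015% in WT and 0.008% in MG53-TG members, against 0.022% and 0.019%. Stem, B cell, myeloid, stromal and red cell lists had no gene that passed the expression filter. Their part in the differences given below was not tested, beyond the values without such barcodes.

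Over genes outside mt-, 5567 passed the filter of 20 CPM on average over the 4 sums (2 libraries, each with members and other enterocytes) and of 30 UMIs. Relative to the total, 2228 of them were higher in members in both libraries (40.0%) and 1375 lower (24.7%). These percentages are the background for every count below, and since the mitochondrial share made the contrast they are a description. The sign was the same in both libraries for 5348 genes (96.1%). The median gene stood at 0.38 in WT and 0.36 in MG53-TG on the log2 scale. Ribosomal protein genes took 2.97% of the UMIs outside mt- genes in WT members against 18.1% in the other WT enterocytes. With median-of-ratios scaling, the medians were 0.01 and 0.00, and higher calls made up 44.7% of all calls in place of 61.8%. With ribosomal RNA models and nuclear-retained RNA left out of the total they were 69.3%, with medians of 0.58 and 0.59. Under the Apoa4/Apoc3 gate 5264 genes passed the filter, of which 1162 were higher (22.1%) and 684 lower (13%), with medians of 0.26 and 0.28.

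Brush border genes took a larger share of the members' RNA under the rule, and under the Apoa4/Apoc3 gate the list medians were about 0. All 15 brush border enzyme genes tested were higher in both libraries, with a median log2 ratio of 1.58 in WT and 1.45 in MG53-TG. Sis, sucrase-isomaltase, stood at 2684 CPM in WT members against 1410 in the others, and at 2914 against 1714 in MG53-TG. Mgam, the maltase that works beside it, stood at 3144 against 762 CPM and at 3383 against 812. Lct stood at 761 against 132 CPM and at 646 against 127. Under the Apoa4/Apoc3 gate the list's medians were -0.00 and -0.05, with 3 genes higher (Ggt1, Alpi and Treh) and 2 lower (Mep1a and Naaladl1). Their summed share there was 1.56% in WT members against 1.42%, and 1.55% against 1.45% in MG53-TG.

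The structural genes of the microvillus moved alike. All 12 tested were higher, with medians of 1.41 and 1.23, and under the Apoa4/Apoc3 gate 1 was, with medians of 0.24 and 0.38 and summed shares of 1.13% against 0.94% in WT and 1.12% against 0.93% in MG53-TG. Vil1, the actin-bundling villin, stood at 1830 CPM in WT members against 643 in the others and at 1845 against 679 in MG53-TG. Of 13 nutrient transporter genes 9 were higher and 1 lower, and under the gate 2 of 12 and 0, with medians of 0.33 and 0.22. Slc5a1, the sodium-glucose cotransporter, stood at 2381 against 584 CPM and at 3009 against 750. Slc9a3, the sodium-proton exchanger of the brush border, was 1 of the 2 higher under the gate, by 1.05 and 1.5 on the log2 scale.

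Lipid genes were split. Of 24 genes for lipid uptake and chylomicron assembly 14 were higher and 3 lower, and 4 and 4 under the Apoa4/Apoc3 gate. Their summed share was 5.69% in WT members against 2.27% and 5.14% against 2.36% in MG53-TG, and under the gate the order turned, with 6.28% against 7.27% and 5.59% against 6.93%. Apob stood at 5118 CPM in WT members against 1230 and at 5113 against 1290 in MG53-TG. Fabp2, the intestinal fatty acid binding protein, went the other way, at 3985 against 5554 CPM in WT and 2818 against 6912 in MG53-TG, log2 ratios of -0.48 and -1.29, of which the first did not pass 1.5-fold. Under the gate the values were -1.69 and -2.38, past it in both libraries.

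Villus tip genes had the highest list median in WT. All 7 were higher, with medians of 2.72 and 1.78, but 1 was under the Apoa4/Apoc3 gate, with medians of 0.38 and 0.32. Ada, the adenosine deaminase of the villus tip, stood at 477 CPM in WT members against 67.1 and at 570 against 78.3 in MG53-TG. Of 11 antimicrobial and lower villus genes 3 were higher and 4 lower under the rule, and 0 and 8 under the gate. Reg3b, a secreted lectin that kills bacteria, stood at 23715 CPM in WT members against 43384 and at 14903 against 30146 in MG53-TG.

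**Figure D3:**
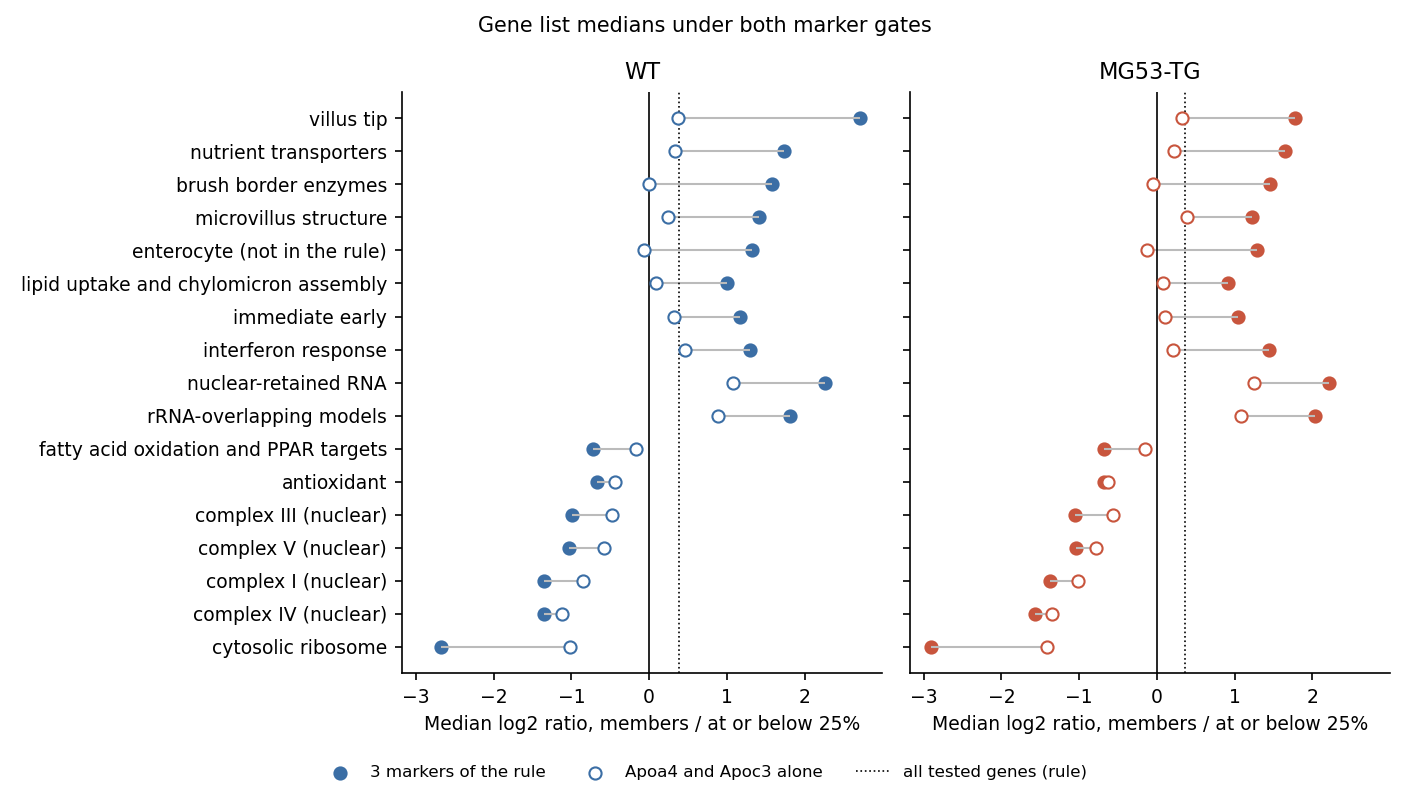
Median log2 ratio of CPM, members over enterocytes at or below 25% mt- UMIs (horizontal axis), for gene lists in WT and MG53-TG, with the rule's markers (filled) and with Apoa4 and Apoc3 alone (open); the dotted line is the median of all tested genes. Brush border enzymes move from 1.58 and 1.45 to about 0, whereas cytosolic ribosome, complex I and complex IV stay below 0 and nuclear-retained RNA stays above it under both.

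Ribosomal protein genes were lower without exception. All 77 tested were lower in both libraries, with medians of -2.67 in WT and -2.90 in MG53-TG, and 71 of 77 under the Apoa4/Apoc3 gate, with medians of -1.02 and -1.41. Rplp0, a protein of the ribosomal stalk (chromosome 5, 115559467 to 115563727, plus strand), averaged 1.84 UMIs per WT member against 58.9 per other WT enterocyte, and 1.59 against 65.1 in MG53-TG. After thinning, it was detected in 19.2% of WT members and 70.7% of the other WT enterocytes. Each scaling tried kept this direction.

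Nuclear genes of the respiratory chain were lower too. Of 37 nuclear complex I genes 27 were lower and 0 higher, with medians of -1.36 and -1.38, and 25 were lower under the Apoa4/Apoc3 gate, with medians of -0.85 and -1.01. Ndufa4, a small subunit of the terminal oxidase first described in complex I, stood at 265 CPM in WT members against 1416 and at 220 against 1298 in MG53-TG. All 10 complex IV genes were lower, also under the gate. Cox8a, one of its subunits, stood at 624 against 2426 CPM in WT and 451 against 2500 in MG53-TG, whereas Cox4i1, the core nuclear subunit, stood at 1807 against 3164 and 1823 against 3123. In complex III 6 of 9 genes were lower, in complex II 3 of 4, and in complex V, the ATP synthase, 13 of 15. Under the gate these counts fell to 3 of 9, 1 of 4 and 7 of 15.

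Not every nuclear mitochondrial gene was lower. Atp5b, the catalytic subunit of the ATP synthase, stood at 1815 against 1941 CPM in WT and 1813 against 1842 in MG53-TG, log2 ratios of -0.10 and -0.02. Ppargc1a, a coactivator that drives mitochondrial biogenesis, was higher, at 145 against 56.8 CPM in WT and 158 against 57.3 in MG53-TG. The mitochondrial DNA packaging factor Tfam was lower, at 16.5 against 52.0 CPM and 17.5 against 53.0. The mitochondrial chaperone Hspe1 was lower at 51.4 against 489 and 34.9 against 478 CPM. Of 4 tested genes for the expression and upkeep of mitochondrial DNA 1 was higher and 3 were lower, and of 7 mitochondrial chaperones and proteases 1 and 4. Under the gate the counts were 0 and 2 of 3, and 0 and 2 of 6. Of 7 fission, fusion and mitophagy genes 3 were higher, and 1 under the gate, Dnm1l, the fission GTPase, by 0.81 and 1.08 on the log2 scale under the rule. Fis1, an outer membrane protein of the same process, stood at -0.53 and -0.70.

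The 13 mt- genes changed little in proportion while their sum was higher. In WT, mt-Co3 and mt-Atp6, subunits of complexes IV and V, made up 20.7% and 20.6% of the members' mt- UMIs, against 19.1% and 18.9% in the other enterocytes. Complex I and III subunits mt-Nd1 and mt-Cytb made up 5.49% and 9.79%, against 6.81% and 11.5%. Per barcode, each of the 13 was more abundant in members, from 1.33 to 2.29 times in WT and from 1.34 to 2.31 times in MG53-TG. The highest ratio in both libraries was that of mt-Nd6, the gene on the opposite strand, which had only 1.71 UMIs per WT member and 2.50 per MG53-TG member.

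Metabolic and stress genes were mixed. Of 25 fatty acid oxidation and PPAR target genes 6 were higher and 14 lower, with medians of -0.72 and -0.68, and 4 and 5 under the Apoa4/Apoc3 gate. Etfb, an electron carrier of the mitochondrial pathway, stood at 259 CPM in WT members against 607 and at 265 against 679 in MG53-TG. Antioxidant genes had 4 higher and 9 lower of 18, and 0 and 6 under the gate. Prdx1, a peroxiredoxin, stood at 495 against 2106 CPM and 361 against 1908. Gpx4, which removes lipid peroxides, stood at 1401 against 737 and 1491 against 815.

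Lists of acute responses gave no uniform picture. Immediate early genes were higher in 7 of 8, with medians of 1.17 and 1.05, and in 1 under the Apoa4/Apoc3 gate. That gene was Fos, at 153 CPM in WT members against 27.8 and 175 against 36 in MG53-TG. Interferon response genes were higher in 6 of 7, and in 1 under the gate, where another was lower. In the p53 and apoptosis list 6 of 14 were higher and 2 lower, and under the gate 2 of 13 and 1. Of 5 hypoxia genes 2 were higher, Vegfa and Pfkfb3, and both remained past 1.5-fold under the gate, Vegfa by 1.12 and 1.43. Of 5 heat shock genes 2 were lower, and 1 under the gate. Among Atf4 targets 1 of 9 was higher and 4 were lower, and 0 and 3 under the gate, and of 4 MHC class II genes 2 were higher under the rule and 2 lower under the gate.

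Nuclear-retained and ribosomal RNA signals took larger shares in members under every setting. Malat1 stood at 35093 CPM in WT members against 9118 and at 40167 against 11578 in MG53-TG. Neat1, the RNA of nuclear paraspeckles, stood at 1506 against 250 and 1573 against 255. Together they differed by 2.27 and 2.21 on the log2 scale, and by 1.08 and 1.25 under the Apoa4/Apoc3 gate. Gm42418 stood at 118582 CPM in WT members against 20988 and at 125419 against 18212 in MG53-TG. With AY036118 it took 12.1% of the UMIs outside mt- genes in WT members, 2.20% in the other WT enterocytes and 12.1% in WT barcodes of 1 to 99 UMIs, which hold mostly free RNA. The part of free RNA in the members' level was not tested. Its UMIs were spread unevenly over barcodes: with those of AY036118 they made up from 2.01% (5th percentile) to 42.3% (95th) of the UMIs outside mt- genes of a WT member, with a median of 8.59%.

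Among the 12 named genes with the highest ratios in members were Tmprss15, Akp3 and Enpp3, which encode enzymes. Tmprss15, the enterokinase that activates trypsin (chromosome 16, 78953008 to 79091097, minus strand), stood at 53.1 CPM in WT members against 3.34 in the others and at 85.7 against 2.75 in MG53-TG. Per barcode it was 3.74-fold and 6.71-fold more abundant, and 2.01-fold and 3.08-fold under the Apoa4/Apoc3 gate. Akp3, an intestinal alkaline phosphatase, stood at 30.2 against 2.20 CPM and 56.0 against 1.96. Enpp3, an ectoenzyme that cleaves nucleotides, stood at 140 against 12 CPM and 190 against 13.4, and was 2.75-fold and 3.06-fold more abundant per barcode (1.12-fold and 1.25-fold under the gate). In CPM all 3 were higher under the gate as well, Tmprss15 by 2.19 and 3.11. All 3 lay under 20 CPM in the other enterocytes and passed the expression filter through the members, so their direction is no finding.

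The other named genes on that side had various roles. Lars2, the leucyl-tRNA synthetase of mitochondria (chromosome 9, 123366927 to 123462666, plus strand), had by far the most UMIs, at 4079 CPM in WT members against 380 and 5114 against 387 in MG53-TG. Ubd, a ubiquitin-like modifier, stood at 93.5 against 5.99 and 145 against 16.9, and it too passed the expression filter through the members. Slc30a10, a manganese exporter, stood at 184 against 22.4 and 211 against 23.8. The others were Podn, Slc5a12, Nlrp9b, Aldh4a1, Ltb4r1 and Zfpm1, and each of the 12 was above 0 under the gate too.

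Many of the genes lowest in members are known from other cell types. Rgs13, Alox5, Alox5ap and Lrmp are known from tuft cells, and Hist1h1b and Ube2c from dividing cells. Alox5ap, which serves leukotriene synthesis, stood at 7.14 CPM in WT members against 109 and at 3.51 against 201 in MG53-TG. Nrgn, Prdx4, Prelid2, Tspan6 and Mecr were also among the lowest. Mecr, an enzyme of mitochondrial fatty acid synthesis, stood at 4.29 against 54.8 and 3.64 against 47.7. The tuft cell and cycling genes tested, and Mecr, had passed the expression filter through the other enterocytes, so their direction is no finding. For the tuft cell genes it stood beside the 7.27% and 12.8% of other enterocytes that reached the tuft cell limit, whose part was not tested for each gene.

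Transcript length went with the ratio. Tested genes were split into 4 equal bins by length. In the bin with the shortest transcripts (median 653 bases) the median log2 ratio was -0.32 (WT) and -0.41 (MG53-TG). For the longest transcripts (median 3062 bases) it was 0.87 and 0.91. Of the shortest bin 24.3% were higher and 42.2% lower in both libraries, and of the longest 62.2% and 6.69%. Over the 5567 genes, which share libraries and depth, Spearman's rho was 0.36 and 0.37, and 0.35 and 0.36 without ribosomal protein genes. Among the genes above, the short Fabp2 and Cox8a and the long Apob and Mgam lie on opposite sides. They are picked examples, and the 24.3% of the shortest bin and 6.69% of the longest given above went the other way.

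The classes changed step by step along the mitochondrial share, with no jump at 25%. Ribosomal protein genes made up 22.6% of the UMIs outside mt- genes in WT enterocytes below 5% mt-, 4.49% at 25 to 30% and 1.85% at 45 to 50%. In MG53-TG the shares were 22.0%, 3.87% and 1.57%. Malat1 and Neat1 with their list went from 0.68% to 2.74% and 4.42% in WT and from 0.79% to 3.25% and 4.95% in MG53-TG. Within the members, then, both classes were still changing.

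Brush border genes followed another course. Their share was 0.27% below 5% mt- in WT, 1.48% at 25 to 30% and 1.46% at 45 to 50%, with 0.23%, 1.52% and 1.49% in MG53-TG. It was level within the members. The share of barcodes that reached the Apoa4/Apoc3 limit went from 14.6% through 69.6% to 73.5% in WT and from 11.5% through 60.7% to 73.7% in MG53-TG. Nuclear complex I genes went from 1.92% to 0.92% and 0.65% in WT and from 1.89% to 0.86% and 0.63% in MG53-TG.

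**Figure D4:**
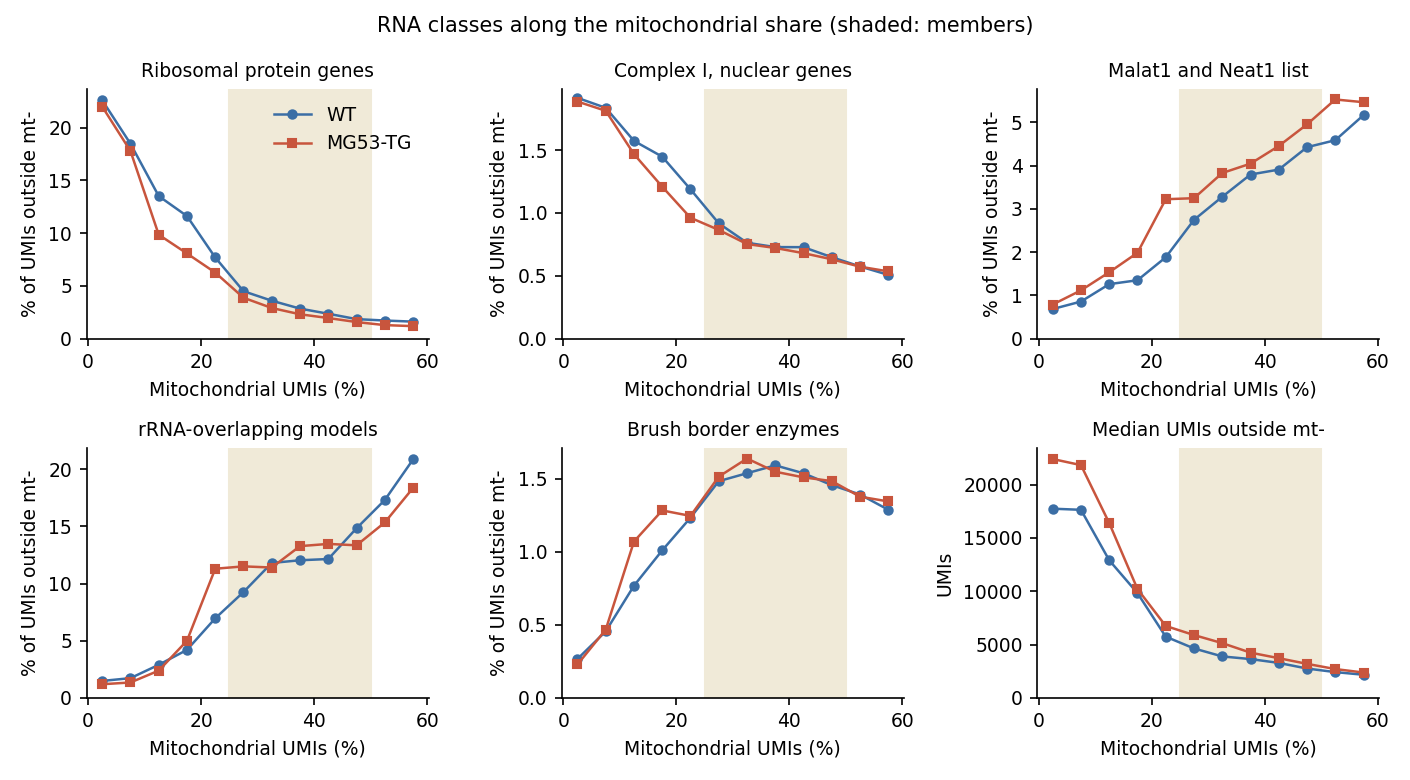
Share of UMIs outside mt- genes taken by 5 RNA classes, and the median number of such UMIs (vertical axes), in steps of 5 points of the mitochondrial share (horizontal axis, to 60%) for enterocytes of WT (circles) and MG53-TG (squares), with the members' range shaded. Ribosomal protein genes go from 22.6% and 22.0% to 1.85% and 1.57% at the end of the members' range, and brush border enzymes are level within it at about 1.5%.

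Members were not uniform. The 346 WT (26.8%) and 479 MG53-TG members (27.7%) under 0.5% on Apoa4 and Apoc3 differed from the others in the genes of the villus axis. Ada stood at 62.0 CPM in this WT subset against 643 in the other members, and at 67.4 against 788 in MG53-TG. Enpp3 stood at 30.6 against 184 and 31.2 against 259. Sis was the reverse, at 3444 against 2378 in WT and 3754 against 2550 in MG53-TG, and so were ribosomal protein genes, at 5.56% against 1.93% and 4.06% against 1.68%. T cell genes also moved with this split, at 0.228% against 0.037% in WT and 0.028% against 0.012% in MG53-TG, and their part was not tested. Brush border enzymes as a list differed little, at 1.42% against 1.56% in WT and 1.51% against 1.55% in MG53-TG. Since Apoa4 and Apoc3 made these subsets, the values are a description.

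The comparison between genotypes describes how members of the MG53-TG library differed from those of the WT library under DSS. In members, Trim72 (chromosome 7, 128003949 to 128011033, plus strand) had 1 UMI in WT (0.20 CPM) and 842 in MG53-TG (114 CPM), a log2 ratio of 9.12 (interval 6.64 to 14.4). The other enterocytes had 0.73 and 78.8 CPM. Without thinning 1 WT member had a Trim72 UMI. After thinning 0 of 1293 did, where 3 counts stand for a share of 0.232%, and 129 of 1731 MG53-TG members did (7.45%). Without thinning 29.9% of MG53-TG members had one, against 52.6% of the deeper enterocytes at or below 25%. The transgenic library label was thus borne out in the members. Of 8 tested membrane repair genes, Trim72 included, it alone passed 1.5-fold between the libraries, in members and in the other enterocytes.

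Apart from the transgene few genes passed 1.5-fold. Of 5567 tested genes 64 were higher in MG53-TG members (1.15%) and 137 lower (2.46%). In the other enterocytes 90 were higher (1.62%) and 18 lower (0.323%). Only 25 were higher in both sets and 14 lower in both, and 22 went past the limit in opposite directions. The median gene differed by 0.06 in members and 0.08 in the others, and median-of-ratios scaling gave 31 higher and 206 lower in members. Under the Apoa4/Apoc3 gate the balance turned, with 99 of 5264 higher (1.88%) and 86 lower (1.63%), and after thinning 381 were higher and 282 lower. Without a replicate library it cannot be said which of these differences come with the genotype.

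Amino acid response genes were higher in MG53-TG in members and in the other enterocytes. Of 9 Atf4 target genes 5 were higher in members, with a median log2 ratio of 0.75, and 6 in the other enterocytes, with 0.71. All 9 were above 0 in members. Atf5, a transcription factor of the integrated stress response, stood at 19.2 CPM in WT and 84.2 in MG53-TG members, a log2 ratio of 2.13 (interval 1.82 to 2.46), and at 38.0 and 123 CPM in the others (1.69). Asns, asparagine synthetase, stood at 23.7 and 59.6 CPM in members (1.33) and 85.4 and 183 in the others (1.10). Mthfd2, of mitochondrial one-carbon metabolism, stood at 9.19 and 23.5 CPM (1.35), and at 32.3 and 80.0 (1.31). Slc7a1, a carrier of cationic amino acids, was higher by 0.89 and 0.82.

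Of 7 interferon genes 3 were higher in MG53-TG members and 3 in the other enterocytes, and the list medians of 0.52 and 0.54 did not pass 1.5-fold. Isg15, a ubiquitin-like protein induced by interferon, stood at 35.1 CPM in WT and 75 in MG53-TG members (1.09) and at 24.9 and 53.9 in the others (1.11). Ifit1bl1 stood at 70.0 and 146 CPM in members (1.06). Nos2, the inducible nitric oxide synthase, stood at 44.3 and 93.3 CPM (1.08) and at 9.87 and 23.9 in the others (1.28).

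Of the named genes a pair was higher in MG53-TG members but not in the other enterocytes. B3gat3, of proteoglycan synthesis, stood at 15.1 and 28.2 CPM in members (0.90) and 19.7 and 20.9 in the others (0.08). Akp3 stood at 30.2 and 56.0 CPM in members (0.89, interval 0.62 to 1.17) and 2.20 and 1.96 in the others (-0.17, interval -0.77 to 0.42). Akp3 passed the expression filter through the members and lay far below 20 CPM in the others, so its contrast between the sets is no finding. The difference between the sets was not tested.

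Most absorptive genes were close between the libraries in members. The log2 ratios of the 15 brush border enzyme genes ran from -0.75 to 0.32, with a median of -0.03, and 1 was lower past 1.5-fold. Of 13 nutrient transporter genes 1 was lower, at -0.79, and 0 were higher. Sis stood at 2684 and 2914 CPM, Mgam at 3144 and 3383, and Apob at 5118 and 5113. Ribosomal protein genes were below 0 in all 77, with a median of -0.33 and 6 past the limit, against -0.10 in the other enterocytes. Under the Apoa4/Apoc3 gate the medians were -0.20 in members and 0.17 in the others, where the sign turned.

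Paneth and lymphocyte genes were lower in MG53-TG members. Of 7 Paneth genes 6 were lower, with a median of -1.05, and -0.69 without barcodes that reached 0.5% on another lineage. In the other enterocytes the median was 0.04, but it rested on few barcodes. Without those that reached 0.5% on the Paneth list (86 in WT and 8 in MG53-TG) it was -1.09, with 6 of 7 lower. In members without such barcodes it was -0.65, with 4 of 7 lower. Defa24, a Paneth cell defensin, stood at 2274 CPM in WT and 937 in MG53-TG members, and at 2132 and 2114 in the others. Defa22 stood at 248 and 36.2 CPM in members (-2.78) and at 92.2 and 209 in the others (1.18). Those 8 MG53-TG barcodes held 95.9% of its UMIs in the others, and without the barcodes past the limit it stood at 46.8 and 8.65 CPM there (-2.44), and at -2.16 in members. After thinning it was detected in 4.91% of the other WT and 0.828% of the other MG53-TG enterocytes, and in 14.8% and 2.14% of members, so in both sets fewer MG53-TG barcodes had it. Defa21 and Defa29 stood at -2.77 and -1.89 in members, and at -2.54 and -1.68 in the others without those barcodes. Defensins are near-identical to one another, so reads can be split among them and single values are uncertain. WT barcodes with 1 to 99 UMIs, which hold mostly free RNA, had 4.72% of their UMIs outside mt- genes in the Paneth list, and no such barcodes were given for MG53-TG, so this background was measured in WT alone.

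Gzma and Ccl5, a granzyme and a chemokine of intraepithelial lymphocytes, stood at 389 and 380 CPM in WT members and at 74.3 and 60.8 in MG53-TG members, log2 ratios of -2.39 and -2.64. In the other enterocytes the ratios were -1.63 and -1.54. The 19 WT members past 0.5% on the T cell list had 17428 CPM of Gzma and also 20751 CPM of Apoa1, the enterocyte apolipoprotein. Under the Apoa4/Apoc3 gate the ratios were -1.55 and -1.73. WT barcodes of 1 to 99 UMIs had 3276 CPM of Gzma and 3179 CPM of Ccl5, above the WT members. The part of this free RNA in the difference was not tested, and the same background was not given for MG53-TG.

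The remaining named genes on that side were Fabp6 and genes of other lineages. Fabp6 stood at 33.3 CPM in WT and 7.42 in MG53-TG members (-2.17), and at 39.3 and 31.8 in the others (-0.30). Chga, a granule protein of enteroendocrine cells, stood at 33.1 and 8.77 CPM (-1.92), and at 47.3 and 36 in the others (-0.39). Rac2, Ptgs1 and Siglecf, genes of blood or tuft cells, were at or below 14.1 CPM in the members of both libraries.

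**Figure D5:**
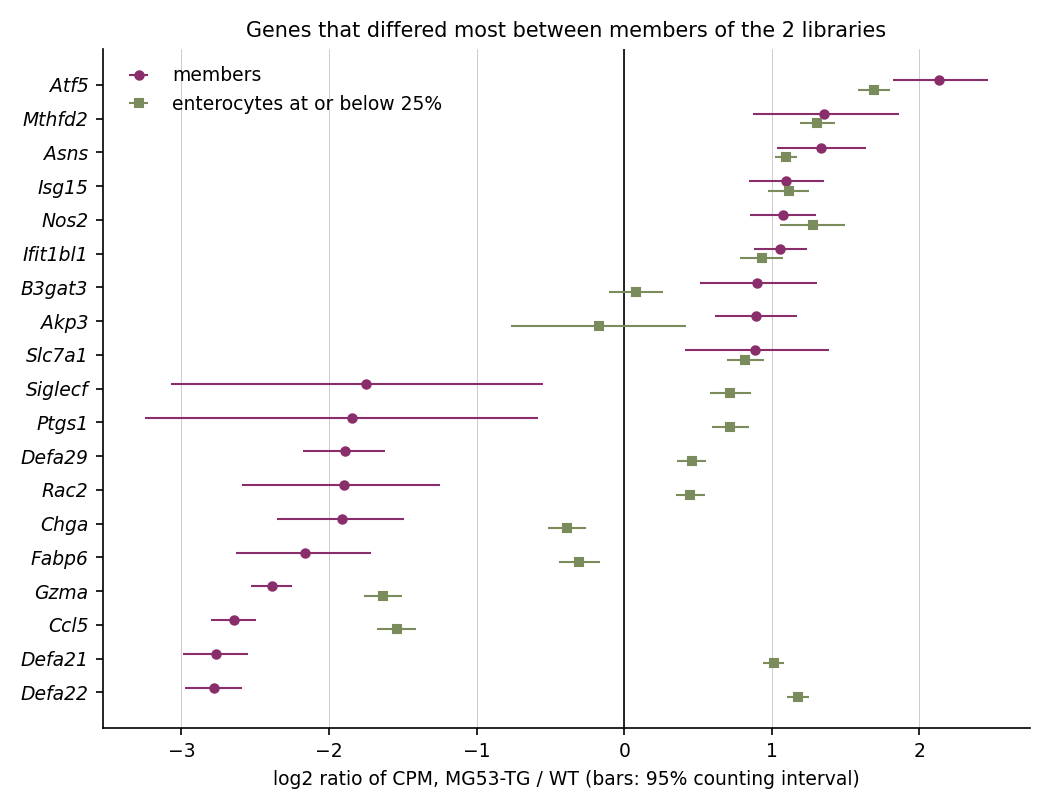
Log2 ratio of CPM, MG53-TG over WT (horizontal axis, bars: 95% counting interval), for the named genes other than Trim72 in members (circles) and in enterocytes at or below 25% mt- UMIs (squares). Atf5 lies above 1.5 in both sets, whereas Defa22 lies at -2.78 in members and at 1.18 in the others, where 8 MG53-TG barcodes hold 95.9% of its UMIs and where it lies at -2.44 without barcodes rich in Paneth genes.

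The mt- genes differed little in proportion between genotypes. Their proportions among mt- UMIs in members were within 0.30 on the log2 scale for 10 of 13 genes. The exceptions were mt-Nd3 at -0.48, mt-Nd4l at 0.48 and mt-Nd6 at 0.35, small complex I subunits, with the same signs in the other enterocytes at -0.37, 0.41 and 0.29. The median mt- UMI count was 2234 in WT and 2647 in MG53-TG members, and the median mitochondrial share 40.5% and 40.6%. The rule holds members between 25% and 50%, so close medians of the share follow largely from it. Of all enterocytes by the marker limits, 53.2% in WT and 64.4% in MG53-TG lay above 25%.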

How the data were processed

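The values deposited by the authors were UMI counts per gene and barcode, unscaled, made with Cell Ranger against mm10; per the file headers, version 4 made the WT counts and version 6.0.1 those of MG53-TG. The WT matrix listed empty droplets as well, and the lowest MG53-TG barcode had 500 UMIs. How reads on either strand or with several matches were counted is not given in the sources used here. Both matrices had 32285 gene rows, and 0 further sample columns.

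Sorted epithelial cells of 1 library per genotype were analysed. Members, comparison set and gene lists were chosen with earlier results of these data known, and the ribosomal list and the subsets by Apoa4 and Apoc3 after values had been seen. UMIs were summed over the barcodes of a set, and CPM and log2 ratios were computed on the total outside mt- genes, without a pseudocount. Genes needed a mean of 20 CPM over the 4 sums and 30 UMIs. Sums outside mt- genes were 4898961 and 7414029 UMIs in members of WT and MG53-TG, and 24526973 and 24025587 in the comparison sets. A ratio past 1.5-fold was called, in both libraries for members against comparison. Named genes were the 12 highest and 12 lowest ratios between members and comparison, ranked by the library nearer to 0 and leaving out numbered gene models, the 10 highest and 10 lowest between genotypes, Trim72, the 13 mt- genes and the leading genes of each list. The 8 marker genes of the rule were not tested. Some genes that the lists or the naming rule hold are not reported here.

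Intervals were exact Clopper-Pearson for shares, Newcombe for differences of shares and exact conditional binomial for ratios, all at 95%, and cover counting error only. For shares of barcodes with a UMI, each barcode was thinned once to 677 UMIs outside mt- genes, and 0 were left out. Doublets were not removed. In an alternative, barcodes with the highest Scrublet scores were removed at 0.8% per 1000 barcodes, 728 in WT (25 members) and 493 in MG53-TG (20 members). Scrublet's own threshold marked 4.72% and 1.66%. Among all barcodes past the minimums 21 sequences occurred in both libraries, and among members 0. Transcript lengths and positions came from the GRCm38/mm10 annotation in the reference. The code for ratios was checked on simulated counts with known fold changes. Python 3.11.15, numpy 2.4.6, scipy 1.17.1, pandas 2.3.3 and scanpy 1.11.5 were used.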

Additional observations from a re-analysis of the deposited data

Results flagged for a closer look

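Between the libraries, 5 values among the genes named for that comparison and the list medians passed 1.5-fold in opposite directions in members and in the enterocytes at or below 25% mt- UMIs. The difference between the sets, members minus others of the log2 ratio of MG53-TG over WT, was -3.96 for Defa22, -3.78 for Defa21, -2.56 for Ptgs1, -2.47 for Siglecf and -1.53 for the median of the tuft cell list. Defa22 and Defa21 are Paneth cell defensins, Ptgs1 is a cyclooxygenase, and Siglecf is a surface lectin, the last 2 known from tuft cells. With 1 library per genotype these differences were not tested. They rest largely on barcodes that carry markers of another lineage, in the other enterocytes and, for Ptgs1 and Siglecf, also in members. Of their MG53-TG UMIs in the other enterocytes, 95.9% (Defa22) and 96.1% (Defa21) lay in 8 barcodes past 0.5% on the Paneth list. For Ptgs1 and Siglecf, 94.4% and 95.8% lay in 155 barcodes past it on the tuft list. In members, 3 WT barcodes past the tuft limit held 94.7% of the WT UMIs of Ptgs1 and 90% of those of Siglecf. Without such barcodes the ratios in the others were -2.44, -2.54, -0.46 and -0.27, and the tuft median was -0.29 there and 0.62 in members. In members Ptgs1 then kept 1 WT and 5 MG53-TG UMIs and Siglecf 2 and 5, too few to give a direction. Over all 5567 tested genes, 22 were past 1.5-fold in opposite directions in the sets.

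Barcodes above 50% mt- UMIs, which the comparisons leave out, still carried enterocyte RNA. Brush border enzyme genes made up a median of 1.24% of the UMIs outside mt- genes per such WT barcode and 1.26% per such MG53-TG barcode, against 1.49% and 1.47% in members and 0.427% and 0.419% in enterocytes at or below 25%.

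WT barcodes of 1 to 99 UMIs had 4.72% of their UMIs outside mt- genes in the Paneth cell list, against 0.392% in WT members, with no control sample to set them against.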

How the results depend on the processing

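The difference of 11.3 points between the libraries in the share above 25% mt- UMIs was 6.63 points with a marker limit of 1%, 7.55 with Apoa4 and Apoc3 alone and 17.0 without barcodes of other lineages. The 2228 genes higher and 1375 lower in members became 1162 and 684 with Apoa4 and Apoc3 alone, 543 and 510 at a mean of 100 CPM and 4126 and 3194 without that filter, where the number of genes tested differed, and median of ratios gave 1453 higher. Between genotypes in members, the 64 higher became 128 with the 1% limit, and higher and lower were 99 and 86 with Apoa4 and Apoc3 alone, 31 and 206 with median of ratios, 381 and 282 after thinning, 13 and 40 at 100 CPM and 975 and 1163 without the filter. The cause was not tested in the other cases.

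With Apoa4 and Apoc3 alone, list medians in members against the others (WT, then MG53-TG) were -0.00074 and -0.046 for brush border enzymes, -0.063 and -0.13 for enterocyte genes outside the rule, -0.45 and -0.67 for MHC class II, all of reversed sign. They were 1.08 and 1.25 for nuclear-retained RNA and -1.02 and -1.41 for the cytosolic ribosome. T cell genes reversed to -0.14 in WT and Paneth genes to 0.77 in MG53-TG. After thinning, the medians were 0.92 for brush border enzymes in WT, 1.57 and 1.49 for nuclear-retained RNA, 0.37 for Paneth and -0.52 for T cell genes in MG53-TG. Without other lineages, Paneth genes stood at 1.94 and enteroendocrine genes at 1.31 in MG53-TG. At 100 CPM, mitochondrial DNA upkeep stood at 1.35 and 1.47, on 1 gene, and mitochondrial dynamics at -0.53 in WT. The tuft cell median between genotypes was 0.21 with the 1% limit. Without barcodes past 0.5% on the Paneth or tuft list, an alternative chosen after seeing the data, MG53-TG over WT in the other enterocytes reversed to -2.44 for Defa22, -2.54 for Defa21, -0.46 for Ptgs1 and -0.27 for Siglecf, and Alox5ap in members to 1.10, on 4 and 13 UMIs. Of 797 repeated values of single genes, 628 stayed within the margin, 164 moved and these 5 reversed.

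No paired analysis was possible because the labels give no replicate numbers, and with 1 library per genotype leaving out a library was not an option. The total without ribosomal RNA models and nuclear-retained RNA was chosen after seeing the data. Depth limits genes of few UMIs: a gene of 20 CPM has under 100 UMIs in the WT members' sum.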
